A study of Homo sapiens with 6 samples.

Results

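The 9 genes described here encode the MHC class I antigen presentation machinery: the heavy chains HLA-B, HLA-C, HLA-E and HLA-F, the light chain B2M, the peptide transporter subunits TAP1 and TAP2, the loading chaperone tapasin (TAPBP) and the transcriptional regulator NLRC5. They were chosen by gene symbol, with earlier results of these data known. All 9 were found among the 16390 genes of the count files, and all 9 passed the filter on low counts that left 13055 genes for testing.

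MHC class I molecules carry short peptides from the inside of the cell to its surface, where CD8+ T cells read them. Cytosolic proteins are cut by the proteasome, and the peptides enter the endoplasmic reticulum through the TAP1 and TAP2 transporter. Tapasin holds an empty heavy chain with B2M next to the transporter until a peptide binds, and a heavy chain without B2M or peptide is largely kept from the surface. Interferons and NF-κB signalling raise transcription of these genes in many cell types, and tumour cells often carry them at low levels.

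RNA was sequenced from SW780, an established human bladder cancer cell line of the luminal type. The 3 RC48 libraries came from SW780 cells exposed to RC48 (disitamab vedotin) at 25 µg/ml, and the 3 Control libraries from the corresponding SW780 cells. RC48 is an antibody against the receptor ERBB2 (HER2) linked to the microtubule poison monomethyl auristatin E. The comparison asks which transcripts differed after the exposure. The labels record the exposure as a genotype, and the methods call the cells stable without saying what the word refers to. The length of the exposure and the treatment of the Control cells are not given in the sources used here. No source says that the replicates of a group were separate cultures, so p-values measure the spread between these libraries, which may be technical.

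The library totals lay between 16453233 and 17988030 estimated counts, a ratio of 1.09. Of 10 urothelial and epithelial markers, all were present, with a summed level of 6768 to 7746 CPM (read counts relative to the total of the library, scaled by TMM) in Control and 7127 to 8296 CPM in RC48. KRT8, KRT18 and KRT19 held most of this sum. KRT20, at 1.94 to 2.03 CPM in Control and 0.486 to 1.002 CPM in RC48, was called lower (log2 fold change −1.55, adjusted p = 0.0489 in edgeR), and 4 of the 10 markers (EPCAM, FOXA1, KRT20 and UPK1B) were lower in each RC48 library than in each Control library. Another 5 of the 10 (KRT8, KRT19, GATA3, UPK2 and ERBB2) had log2 fold changes above 0, with overlapping groups. The median of the 10 was 0.03. With the GC correction, 3 of the 10 were called lower, beside 3.22% of all genes tested. Without it, 0.23% of all genes tested were called lower. The share of all genes that were lower in each RC48 library than in each Control library was not computed. ERBB2, the receptor that RC48 binds, was at 203 to 208 CPM in Control and at 277, 185 and 225 CPM in RC48. Replicates of RC48 were less alike than replicates of Control, with a chi-square per degree of freedom of 23.2 to 140.5 against 1.499 to 12.1. Part of that spread followed GC content. The Spearman correlation across 12981 genes of GC content of the transcripts with the log2 ratio to Control was 0.74 in RC48 replicate 1, −0.01 in replicate 2 and 0.57 in replicate 3, where genes are not independent replicates. The change of each of the 9 genes is therefore also given after the GC trend of each library was subtracted.

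The 9 genes lay on 3 chromosomes (build GRCh38.p14, RefSeq). HLA-F (chr6:29723434-29738532), HLA-E (chr6:30489509-30494194), HLA-C (chr6:31268749-31272092), HLA-B (chr6:31353875-31357179), TAP2 (chr6:32821831-32838739), TAP1 (chr6:32845209-32853704) and TAPBP (chr6:33299694-33314078) lie in the MHC region. B2M lies at chr15:44711517-44718145 and NLRC5 at chr16:56989557-57083520. RefSeq promoter windows of 250 bases before the start site were found for 7 of the 9 genes. HLA-E and NLRC5 had no entry in the promoter table. Those of the 5 genes called higher after RC48 exposure are printed first, followed by HLA-C, whose window is the closest to that of HLA-B although its change was smaller. Each runs 5′ to 3′ on the strand of the gene and ends at the base before the start site. Capitals mark matches, on either strand, to CCAAT (the letters read by NF-Y), TGACG (the core of the site read by CREB and ATF proteins), AANNGAAA (the letters shared by interferon response elements) or the NF-κB consensus. The windows are HLA-B chr6:31357180-31357429 (minus strand), HLA-F chr6:29723184-29723433 (plus), B2M chr15:44711267-44711516 (plus), TAP1 chr6:32853705-32853954 (minus), TAPBP chr6:33314079-33314328 (minus) and HLA-C chr6:31272093-31272342 (minus).
HLA-B: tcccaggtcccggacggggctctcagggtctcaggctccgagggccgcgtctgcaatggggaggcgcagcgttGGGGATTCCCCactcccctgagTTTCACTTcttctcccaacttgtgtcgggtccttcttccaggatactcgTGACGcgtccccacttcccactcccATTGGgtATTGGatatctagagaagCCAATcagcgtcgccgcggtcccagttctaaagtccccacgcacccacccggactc
HLA-F: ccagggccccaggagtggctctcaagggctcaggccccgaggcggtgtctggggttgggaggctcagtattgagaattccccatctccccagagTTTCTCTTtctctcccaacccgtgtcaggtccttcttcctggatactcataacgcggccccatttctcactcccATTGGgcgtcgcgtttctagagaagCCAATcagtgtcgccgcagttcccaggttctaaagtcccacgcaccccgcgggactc
B2M: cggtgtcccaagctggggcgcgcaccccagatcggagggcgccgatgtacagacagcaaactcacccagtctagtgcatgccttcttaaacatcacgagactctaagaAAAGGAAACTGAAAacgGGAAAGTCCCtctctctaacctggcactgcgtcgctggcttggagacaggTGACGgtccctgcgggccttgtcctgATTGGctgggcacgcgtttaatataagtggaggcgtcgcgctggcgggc
TAP1: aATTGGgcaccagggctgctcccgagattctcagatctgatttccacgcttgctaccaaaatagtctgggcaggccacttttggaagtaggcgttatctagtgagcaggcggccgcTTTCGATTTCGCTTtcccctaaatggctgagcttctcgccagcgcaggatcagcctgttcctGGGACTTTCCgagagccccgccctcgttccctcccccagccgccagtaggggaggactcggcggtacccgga
TAPBP: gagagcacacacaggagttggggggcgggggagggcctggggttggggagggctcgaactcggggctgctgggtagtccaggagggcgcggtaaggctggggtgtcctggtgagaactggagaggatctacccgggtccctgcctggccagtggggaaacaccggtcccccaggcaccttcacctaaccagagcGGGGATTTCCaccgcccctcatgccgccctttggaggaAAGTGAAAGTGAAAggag
HLA-C: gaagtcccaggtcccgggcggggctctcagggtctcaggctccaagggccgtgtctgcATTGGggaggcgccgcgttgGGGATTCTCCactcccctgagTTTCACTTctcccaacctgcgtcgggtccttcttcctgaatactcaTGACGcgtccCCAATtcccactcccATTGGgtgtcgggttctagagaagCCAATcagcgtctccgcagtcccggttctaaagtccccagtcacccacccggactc

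The interferon response letters AANNGAAA were found in 7 of the 7 windows and in 20.3% of the 35116 promoter windows of the same length in the table. In TAP1, TAPBP, TAP2 and B2M, 2 matches overlapped. The NF-κB consensus was found in 5 of 7 windows (HLA-B, HLA-C, B2M, TAP1 and TAPBP) and in 5.21% of all windows. In HLA-B 2 overlapping matches fit the consensus on both strands. CCAAT was found in 5 of 7 (32.01% of all windows) and TGACG in 4 of 7 (21.2%). Among the 6 printed windows, the heavy chain windows resembled each other. HLA-B and HLA-C shared 89.0% of aligned bases, HLA-B and HLA-F 79.8%, and HLA-C and HLA-F 78.2%, whereas all other pairs of the 7 windows shared between 41.6% and 49.2%. A match is a description of the letters in the window and not a measured binding site.

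All 9 genes were higher in each RC48 library than in each Control library, and 5 of the 9 (HLA-B, HLA-F, B2M, TAP1 and TAPBP) passed the test. The increases ranged from 0.43 on the log2 scale (TAP2) to 1.17 (HLA-F), with a median of 0.70, against a median of 0.02 over all 13055 genes. Here and below, a call is an adjusted p under 0.05 in edgeR's quasi-likelihood test, adjusted by Benjamini-Hochberg over all genes tested. By this rule, 1.98% of the 13055 genes were called higher and 0.23% lower. Separation of this kind, all RC48 libraries above all Control libraries, was seen in 17.4% of the 13055 genes. In bulk RNA, fewer cells of a type and less RNA per cell cannot be told apart, and a higher value is a larger share of the RNA of a library. After the GC correction, 5 of the 9 were again called higher (HLA-B, HLA-F, B2M, TAP1 and NLRC5), where 4.19% of all genes were called higher and 3.22% lower, and the median of the 9 was 0.55. TAPBP lost its call and NLRC5 gained one. The calls depended on the libraries entered. Without any single Control library or without RC48 replicate 3, edgeR called 0 of the 9 and 68 to 93 of all genes, while 8 or 9 of the 9 were higher at an unadjusted p under 0.05, as were 6.88% to 8.01% of all genes. Without RC48 replicate 1, 7 of the 9 and 897 genes were called, and without RC48 replicate 2, 9 of the 9 and 3726 genes. DESeq2 called 7 of the 9 higher, where it called 4.11% of all genes higher and 1.59% lower. Limma voom, run here and below with sample quality weights, called 9 of the 9 higher, where it called 30.4% of all genes higher and 31% lower.

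**Figure D1:**
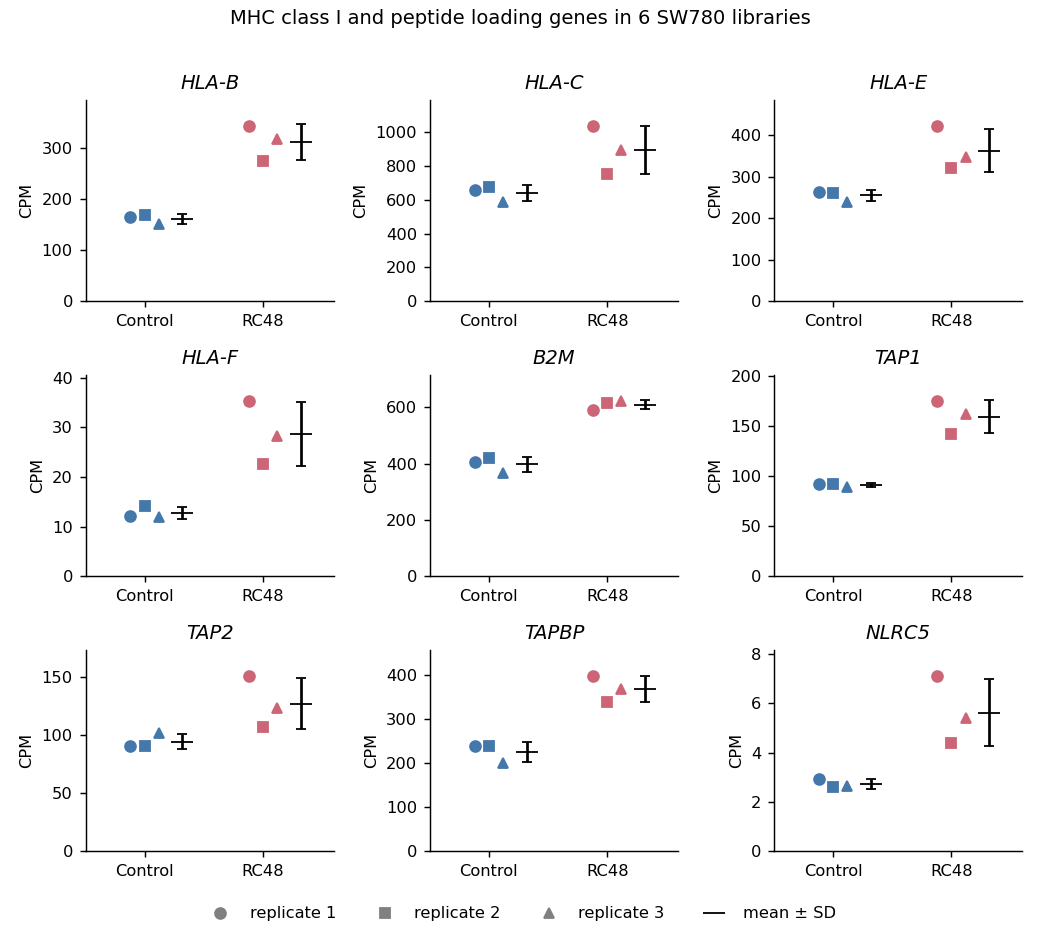
Normalized level (CPM, linear axis from 0) of each of the 9 genes in the 3 Control (blue) and 3 RC48 (red) libraries, with the mean and SD of each group in black. In every panel the 3 RC48 libraries lie above the 3 Control libraries, and RC48 replicate 1 is the highest except for B2M.

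The classical heavy chains HLA-B and HLA-C present peptides to CD8+ T cells. HLA-B (NCBI gene 3106) was at 165, 168 and 151 CPM in Control and at 344, 274 and 319 CPM in RC48. The groups did not overlap, and the lowest RC48 library held well above the highest Control library. The mean rose from 161 ± 9.36 to 312 ± 35.2 CPM (SD, n = 3), a log2 fold change of 0.95 with a standard error of 0.13 (adjusted p = 0.00979 in edgeR). With the GC correction the log2 fold change was 0.66 (adjusted p = 0.00496), and 16 of 20 alternatives called HLA-B (adjusted p 1.54e-09 to 0.0956). HLA-C (3107), the most abundant of the 9, was at 658, 675 and 584 CPM in Control and at 1034, 753 and 891 CPM in RC48. RC48 replicate 2 was closest to Control. The mean was 639 ± 48.2 CPM in Control and 893 ± 140.4 CPM in RC48, a log2 fold change of 0.48 (SE 0.14) that missed the threshold (adjusted p = 0.165 in edgeR). With the GC correction it was 0.16 (adjusted p = 0.271; 0.05, 0.20 and 0.23 in RC48 replicates 1, 2 and 3), and 3 of 20 alternatives called HLA-C (6.78e-06 to 0.490).

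Of the non-classical heavy chains, HLA-F rose and HLA-E missed the threshold. HLA-E (3133), the ligand of the NKG2A receptor on natural killer cells, was at 264, 262 and 239 CPM in Control and at 423, 321 and 347 CPM in RC48. Its mean was 255 ± 13.9 CPM in Control and 364 ± 52.7 CPM in RC48, and the log2 fold change of 0.51 (SE 0.14) missed the threshold (adjusted p = 0.126 in edgeR). Corrected for GC content it was 0.31 (adjusted p = 0.0526), and 5 of 20 alternatives called it (7.18e-06 to 0.442). HLA-F (3134), a heavy chain that can also reach the surface without peptide, was the least abundant heavy chain. Its levels were 12.2, 14.2 and 11.95 CPM in Control and 35.3, 22.6 and 28.2 CPM in RC48. All RC48 libraries stood apart from the Control libraries, and replicate 1 stood highest. The mean rose from 12.8 ± 1.23 to 28.7 ± 6.38 CPM, a log2 fold change of 1.17 (SE 0.19, adjusted p = 0.0246 in edgeR). After the correction the log2 fold change was 0.91 (adjusted p = 0.00176), and HLA-F was called in 16 of 20 alternatives (3.55e-08 to 0.187).

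Summed over HLA-B, HLA-C, HLA-E and HLA-F, heavy chain RNA was at 1099, 1120.2 and 986 CPM in Control and at 1836, 1371 and 1585 CPM in RC48. The groups did not overlap, and the ratio of the means was 1.495. The log2 ratio was 0.58 (SD 0.21 over the 3 RC48 libraries). This sum was not corrected for GC content. With the GC correction HLA-C, the most abundant of the summed genes, had a log2 fold change of 0.16 (adjusted p = 0.271 in edgeR). HLA-B was then at 0.66, HLA-E at 0.31 and HLA-F at 0.91. Of the windows of 50 bases in the longest reference transcript of each heavy chain, between 1.51% (HLA-F) and 6.71% (HLA-C) also occurred in another class I gene, and the estimated counts were not whole numbers in any library for HLA-B and HLA-C and in 2 of 6 libraries each for HLA-E and HLA-F. How reads were divided among the heavy chains, whose alleles in SW780 may differ from the reference, was not tested.

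The make-up of heavy chain RNA also differed between the groups when levels were compared per length, in TPM, the authors' length-normalized unit. TPM of RC48 replicate 2 was computed here from its counts. HLA-C held 66.7 ± 0.454% of the summed TPM of the 4 heavy chains in Control and 61.6 ± 0.546% in RC48 (SD, n = 3). HLA-B held 16.97 ± 0.191% and 21.8 ± 0.911%, and HLA-F 1.698 ± 0.111% and 2.53 ± 0.207%. The shares of the 3 RC48 libraries did not overlap those of Control for these 3 genes, being lower for HLA-C and higher for HLA-B and HLA-F. For HLA-E, at 14.7 ± 0.281% and 14.1 ± 0.593%, they overlapped. These shares add to the whole, so they are not independent, and the lengths behind TPM were estimated by the authors' counting.

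**Figure D2:**
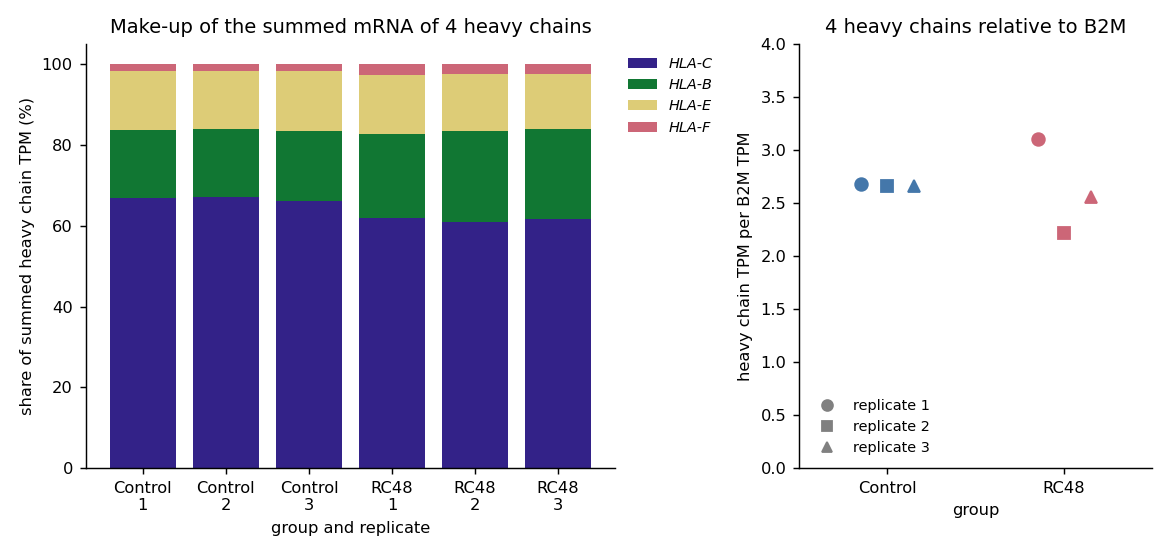
Left, the share (%) of HLA-B, HLA-C, HLA-E and HLA-F in their summed TPM in each library. Right, the ratio of summed heavy chain TPM to B2M TPM in each library of both groups (axis from 0), which is 2.66 to 2.68 in Control and spreads from 2.22 to 3.10 in RC48.

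B2M, the light chain shared by the class I heavy chains, rose. B2M (567) was at 406, 418 and 367 CPM in Control and at 590.2, 616 and 621 CPM in RC48. The groups were far apart, and the 3 RC48 libraries lay close together in CPM, though not in TPM (647 to 804). The mean rose from 397 ± 26.5 to 609 ± 16.6 CPM, a log2 fold change of 0.62 (SE 0.11, adjusted p = 0.0326 in edgeR). B2M has the lowest GC content of the 9 (39.6%), and it was the only one of the 9 whose change was larger with the GC correction, at 1.02 (adjusted p = 0.0151, with 1.40, 0.59 and 0.96 in RC48 replicates 1, 2 and 3). It was called in 11 of 20 alternatives (1.11e-07 to 0.229). The summed TPM of the 4 heavy chains per B2M TPM was 2.68, 2.67 and 2.66 in Control and 3.10, 2.22 and 2.56 in RC48. The RC48 values lay on both sides of Control, and these TPM were not corrected for GC content. RC48 replicate 2, whose log2 ratios to Control hardly followed GC content, was the lowest at 2.22. With the GC correction the log2 fold changes of HLA-B, HLA-C, HLA-E and HLA-F were 0.66, 0.16, 0.31 and 0.91, beside 1.02 for B2M. Whether the ratio of these heavy chains to B2M changed was not tested.

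Of the transporter subunits, TAP1 rose and TAP2 missed the threshold. TAP1 (6890) was at 92.3, 92.1 and 89.1 CPM in Control and at 175, 142 and 162 CPM in RC48. The Control libraries lay close together and the RC48 libraries well above them. The mean rose from 91.2 ± 1.77 to 159.6 ± 16.6 CPM, a log2 fold change of 0.81 (SE 0.12, adjusted p = 0.0166 in edgeR). Corrected for GC content it was 0.55 (adjusted p = 0.00725), and TAP1 was called in 15 of 20 alternatives (8.78e-09 to 0.147). TAP2 (6891), the other subunit of the dimer, was at 90.7, 90.3 and 102 CPM in Control and at 151, 107 and 123 CPM in RC48. The gap between the highest Control library and the lowest RC48 library was small. The mean was 94.2 ± 6.41 CPM in Control and 127 ± 21.9 CPM in RC48, a log2 fold change of 0.43 (SE 0.15, adjusted p = 0.209 in edgeR) that was 0.42 with the GC correction (adjusted p = 0.101). It was called in 3 of 20 alternatives (1.30e-05 to 0.518). TAP1 TPM per TAP2 TPM was 1.36 to 1.66 in Control and 1.38 to 2.05 in RC48, with overlap.

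Tapasin, which bridges the transporter and the empty heavy chain, rose. TAPBP (6892) was at 239, 239 and 199 CPM in Control and at 397, 339 and 368 CPM in RC48. The groups did not overlap. The mean rose from 226 ± 22.9 to 368 ± 29.03 CPM, a log2 fold change of 0.70 (SE 0.13, adjusted p = 0.0349 in edgeR). TAPBP has the highest GC content of the 9 (63.1%), and with the GC correction its log2 fold change was 0.40 and no longer called (adjusted p = 0.0745). Over the 20 alternatives it was called in 13 (1.89e-07 to 0.193).

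NLRC5, the transactivator of class I genes, was the least abundant of the 9 genes. NLRC5 (84166) was at 2.95, 2.61 and 2.65 CPM in Control and at 7.11, 4.40 and 5.40 CPM in RC48, from 141 counts in all of Control and 291 in all of RC48. The groups did not overlap, and RC48 replicate 1 was the highest. The mean was 2.74 ± 0.186 CPM in Control and 5.63 ± 1.37 CPM in RC48, a log2 fold change of 1.04 (SE 0.22) that missed the threshold (adjusted p = 0.0660 in edgeR). After the correction it was 0.75 and was called (adjusted p = 0.0187). It was called in 8 of 20 alternatives (5.82e-06 to 0.310).

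In a two-sided exact permutation test on log2 CPM, each of the 9 genes gave p = 0.1, the smallest p-value that 3 libraries against 3 can give. This p-value was fixed by the separation of the groups given above, which 17.4% of all genes tested showed in the same direction. The direction was higher in RC48 for each of the 9 genes in all 20 alternatives. The alternatives use the same libraries, so the kept direction adds no evidence beyond that separation.

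**Figure D3:**
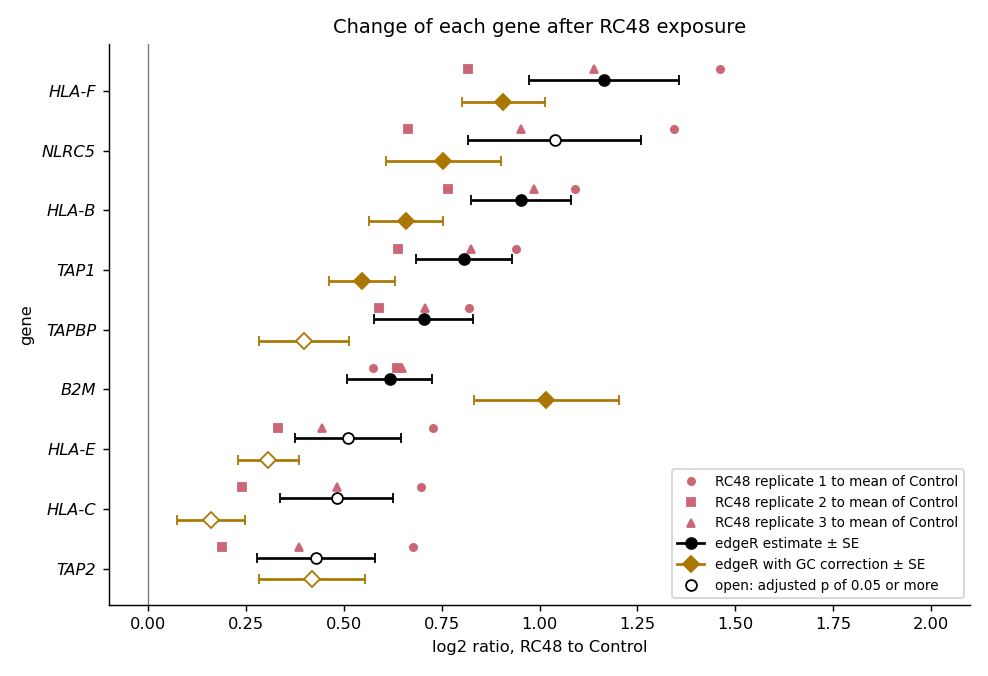
Log2 ratio of RC48 to Control for each gene, ordered by size. Red marks are the 3 RC48 libraries against the mean of Control, black circles the edgeR estimate and gold diamonds the estimate with the GC correction, each ± SE, filled where the adjusted p was under 0.05. All estimates lie above 0, and the correction moves B2M upwards and the others downwards.

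The 9 genes did not stand at the middle of the GC range. Of the 9, 7 had a GC content above the median of all genes tested (49.95%). In RC48 replicate 1, the tenth of genes with the lowest GC content had a median log2 ratio of −0.99 to Control and the tenth with the highest 0.66. In replicate 3 these medians were −0.39 and 0.25, and in replicate 2 they were 0.02 and 0.01. In RC48 replicate 2, in which the medians hardly moved with GC content, the log2 ratios of the 9 genes ran from 0.19 (TAP2) to 0.82 (HLA-F). HLA-B was 0.77 higher there, B2M 0.64, TAP1 0.64 and TAPBP 0.59. That all are above 0 follows from the separation of the groups given above, and this is a single library. The origin of the GC trend in the other RC48 libraries was not tested.

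**Figure D4:**
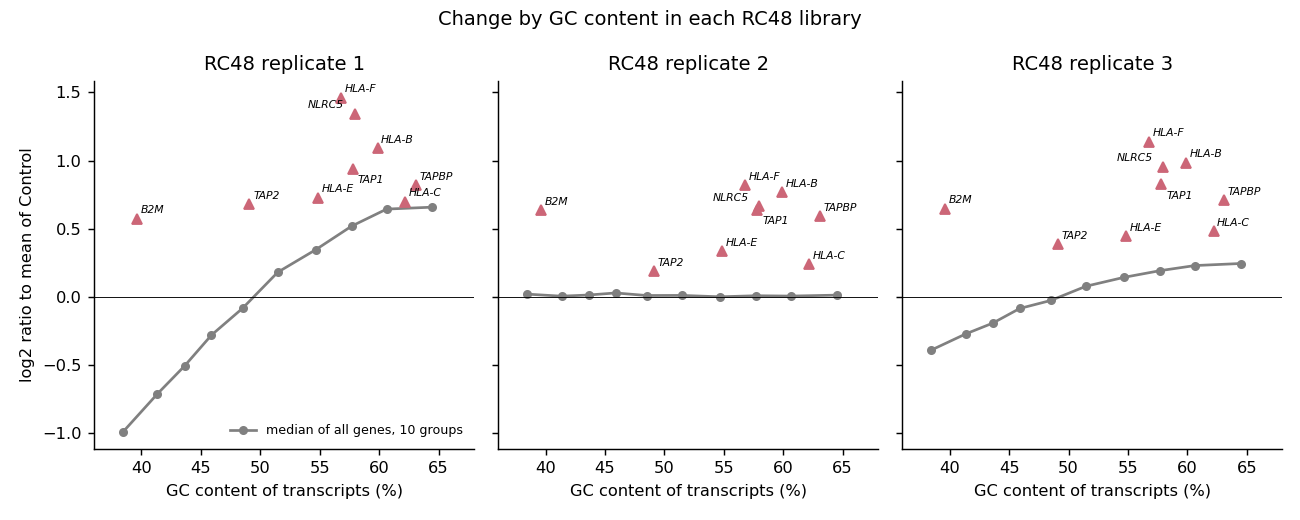
GC content of the transcripts (%) against the log2 ratio to mean Control, 1 panel for each RC48 library. Grey points are medians of all tested genes in 10 groups by GC content and red triangles the 9 genes. The medians climb from −0.99 to 0.66 in replicate 1 and from −0.39 to 0.25 in replicate 3 and are flat in replicate 2. All 9 genes lie above 0 in every panel.

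The order of the 9 genes by level per length was the same in both groups. In Control, HLA-C was at 911 ± 22.3 TPM, followed by B2M at 512 ± 9.21, HLA-B at 232 ± 2.19, HLA-E at 200.2 ± 0.992, TAPBP at 130.3 ± 4.77, TAP1 at 67.2 ± 1.597, TAP2 at 43.7 ± 6.01, HLA-F at 23.2 ± 1.59 and NLRC5 at 0.75 ± 0.053 TPM (SD, n = 3). No neighbours in this order overlapped over the Control libraries. In RC48, HLA-C was at 1175 ± 79.7 TPM, B2M at 735 ± 79.9, HLA-B at 415 ± 15.5 and NLRC5 at 1.47 ± 0.271 TPM. TAP2 (51.4 to 80.3 TPM) and HLA-F (41.5 to 54.9 TPM) were the only neighbours that overlapped in RC48.

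Of 73 further genes of antigen presentation and its control, 69 were listed in the files, 61 were tested, edgeR called 6 higher and 0 lower. Their median log2 fold change was 0.19, against 0.70 for the 9 genes and 0.02 for all genes. At an unadjusted p under 0.05, 19 of the 61 were higher and 0 lower, beside 11.9% of all genes higher and 7.21% lower. DESeq2 called 10 higher and 0 lower, beside 4.11% and 1.59% of all genes. Limma voom called 31 higher and 9 lower, beside 30.4% and 31% of all genes. These shares of all genes are also to be read beside the counts of each list below. With the GC correction, edgeR called 9 higher and 0 lower, and the median was 0.07.

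In peptide supply, edgeR called 0 of 15 genes, with 8 higher and 0 lower at an unadjusted p under 0.05, beside 11.9% and 7.21% of all genes. DESeq2 called 2 higher and 0 lower, and limma voom 9 higher and 3 lower. Among the immunoproteasome subunits, which alter the cutting of peptides, PSMB9 was at 28.9, 30.6 and 28.1 CPM in Control and at 81.8, 39.1 and 45.9 CPM in RC48. RC48 replicate 1 was far above the other RC48 libraries. The log2 fold change of PSMB9 was 0.93 (adjusted p = 0.154 in edgeR), and 0.66 with the GC correction, where it was narrowly called (adjusted p = 0.0490). With that correction 2 of the 15 were called higher, and the other was the aminopeptidase LAP3 (0.58, adjusted p = 0.00327 in edgeR). PSMB9 starts 488 bases from TAP1 and is read in the opposite direction. PSMB8 (0.36, adjusted p = 0.253) and PSMB10 (0.47, adjusted p = 0.231) were not called, nor were the proteasome activators PSME1 (0.21, adjusted p = 0.325) and PSME2 (0.35, adjusted p = 0.260). The constitutive subunits PSMB5 (0.40), PSMB6 (0.58) and PSMB7 (0.43) were not called either (adjusted p = 0.252, 0.223 and 0.192 in edgeR). All of these genes were higher in each RC48 library than in each Control library, as were 17.4% of all genes tested. The peptide-trimming aminopeptidases of the endoplasmic reticulum had log2 fold changes of −0.07 (ERAP1) and −0.32 (ERAP2), with overlapping groups.

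Of the 8 folding and loading helpers in the endoplasmic reticulum, edgeR called 0, with 1 at an unadjusted p under 0.05. DESeq2 called 0 as well, limma voom 2 higher and 1 lower, and their median log2 fold change was −0.07. The chaperones CALR (0.15), CANX (−0.36) and PDIA3 (−0.20), which work beside tapasin, had overlapping groups. TAPBPL, a tapasin relative that edits peptides, was at 14.0 to 15.6 CPM in Control and at 36.9, 18.7 and 21.3 CPM in RC48. Its log2 fold change of 0.78 missed the threshold (adjusted p = 0.189 in edgeR).

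Transcriptional control held 4 of the 6 called genes among its 17. RELB, a subunit of the non-canonical NF-κB pathway, was at 7.75, 9.68 and 7.65 CPM in Control and at 82.5, 50.1 and 62.6 CPM in RC48. It rose by 2.96 on the log2 scale (SE 0.22, adjusted p = 0.000637 in edgeR). NFKB2, whose product p100 is the precursor of the partner of RELB, was at 26.7, 27.99 and 22.9 CPM in Control and at 127.7, 82.4 and 104 CPM in RC48. It rose by 2.02 (SE 0.19, adjusted p = 0.00181 in edgeR). With the GC correction the changes were 2.62 and 1.69, and both were called in 20 of 20 alternatives. IRF9, which binds interferon response elements together with STAT proteins, rose from 24.2, 24.3 and 24.97 to 94.7, 61.2 and 69.8 CPM (log2 fold change 1.62, SE 0.18, adjusted p = 0.00446 in edgeR). STAT2 rose by 0.70 (SE 0.12, adjusted p = 0.0346 in edgeR). Corrected for GC content, IRF9 was at 1.37 and STAT2 at 0.57, and they were called in 19 and 11 of 20 alternatives. The RFX factors bind class I promoters and form the enhanceosome with NLRC5. RFX5 was at 0.22 (adjusted p = 0.301), RFXANK at 0.46 (adjusted p = 0.236) and RFXAP at −0.35 (adjusted p = 0.434 in edgeR), and none was called. IRF1 (0.53, adjusted p = 0.0583 in edgeR) missed the threshold with non-overlapping groups. CIITA, the relative of NLRC5 that acts on class II genes, was at 2.14 to 2.65 CPM in Control and at 1.37 to 2.73 CPM in RC48, with overlap.

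**Figure D5:**
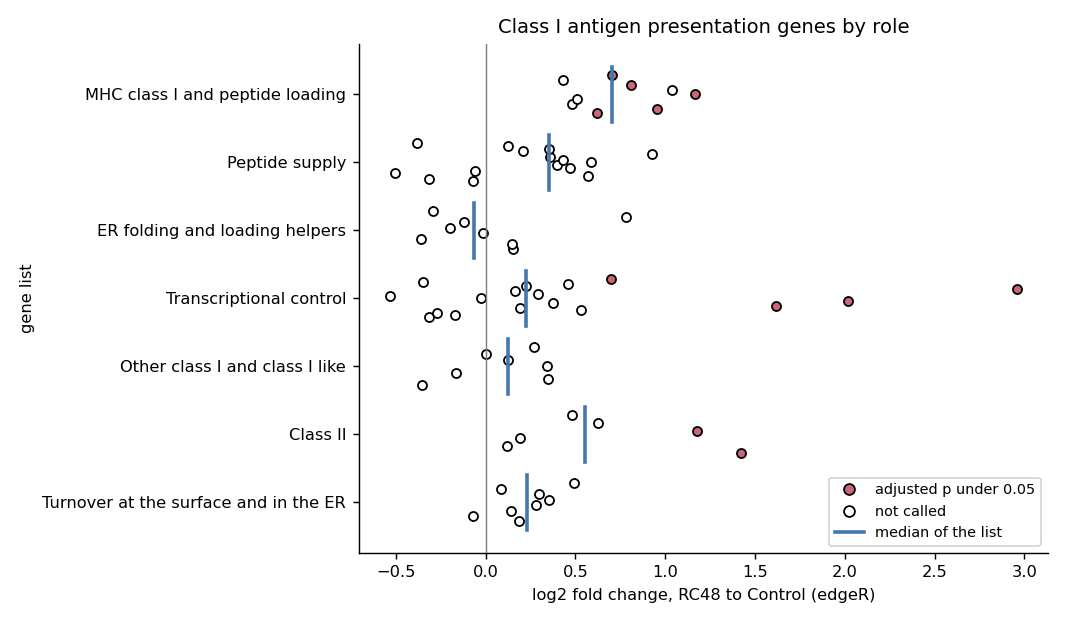
Log2 fold change (edgeR, RC48 to Control) of each tested gene, in the 9 genes described here and in 6 lists of other genes of antigen presentation. Filled circles passed an adjusted p of 0.05 and blue bars are medians. The median is 0.70 for the 9 genes and between −0.07 and 0.55 for the lists.

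Of the 12 class II genes, 6 passed the filter and 2 were called higher. HLA-DQB1, the β chain of HLA-DQ, was at 12.03, 13.2 and 13.5 CPM in Control and at 36.7, 24.0 and 27.1 CPM in RC48 (log2 fold change 1.18, SE 0.19, adjusted p = 0.0207 in edgeR). CD74, the invariant chain that occupies the class II groove, was at 0.58 to 0.77 CPM in Control and at 1.48 to 2.25 CPM in RC48 (1.42, SE 0.28, adjusted p = 0.0475 in edgeR). Corrected for GC content they were at 1.08 and 1.13, and they were called in 16 and 10 of 20 alternatives. HLA-DQA1, the partner of HLA-DQB1, had 0 counts in each Control library and 2, 1 and 0 in RC48 replicates 1, 2 and 3. HLA-DRA, the partner of HLA-DRB1, had 0 counts in 5 of the 6 libraries. Of 7 tested class I-like relatives, edgeR called 0, with 0 at an unadjusted p under 0.05, and DESeq2 called 0. Of 8 tested genes of class I turnover, edgeR called 0, with 1 at an unadjusted p under 0.05, and DESeq2 called 0. Limma voom called 3 of these relatives higher and 1 lower, and 5 of the turnover genes higher. HLA-G was not listed in the files.

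SW780 is a cell line, and its cultures should lack leukocytes and stromal cells. Cells rich in class I could add to such levels, so markers of other cell types were still read beside them. Of 14 leukocyte markers, 10 were listed, and their summed level was 18.5 to 19.1 CPM in Control and 23.4 to 43.6 CPM in RC48. Of the 6 that were tested, 4 were higher in each RC48 library than in each Control library, as were 17.4% of all genes tested. The median log2 fold change of the 6 was 0.97. CD3E, at 0.311 ± 0.0922 CPM in Control and 0.991 ± 0.386 CPM in RC48, and CD14, at 0.349 ± 0.114 and 0.955 ± 0.389 CPM, were among these 4 (SD, n = 3). CD3E had 16 counts in all of Control and 51 in all of RC48, and CD14 had 18 and 49. The tested CD3D (log2 fold change 0.24) and LYZ (0.20) had overlapping groups. CD68, which is not particular to leukocytes, held most of the summed level. ITGAM, at 0 to 0.29 CPM in Control and at 3.08 to 4.19 CPM in RC48, was the only marker of the 6 called (adjusted p = 0.00740 in edgeR). PTPRC, the defining leukocyte marker, and CSF1R had 0 counts in every Control library and at most 0.11 CPM in RC48. Of 7 fibroblast and endothelial markers, all were listed and 6 tested, with a summed level of 472 to 505 CPM in Control and 469 to 579.7 CPM in RC48. The edgeR test called 0 of these 6, with 2 higher and 2 lower at an unadjusted p under 0.05, and DESeq2 called 2 higher and 1 lower. COL3A1 (280.5 ± 18.2 and 412 ± 47.6 CPM) and COL1A1 (9.80 ± 0.539 and 16.3 ± 3.69 CPM) were higher in each RC48 library than in each Control library, and LUM (167.6 ± 3.10 and 92.2 ± 23.2 CPM) and PECAM1 (19.2 ± 0.776 and 14.2 ± 1.21 CPM) were lower in each. Whether any such cells were present was not tested, nor was their part in the levels of the 9 genes.

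The genes outside these lists that moved most like the 9 were sought among 9920 genes with at least 10 CPM, by the root mean square difference of log2 CPM from the median of the 9 genes over the 6 libraries. They were PML at 0.0541, GPC4 at 0.0631, ITPRIP at 0.0643, INPP1 at 0.0684 and ARHGDIB at 0.0697 on the log2 scale. PML, the scaffold of nuclear bodies, had a log2 fold change of 0.71 and GPC4, a cell surface proteoglycan, of 0.79. Among the 9 themselves, TAPBP was nearest to the median (0.0447) and HLA-F farthest from it (0.329).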

How the data were processed

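RNA of 6 SW780 libraries (3 Control, 3 RC48) was sequenced by the authors on a BGI instrument, filtered with SOAPnuke, mapped with Bowtie2 and counted with RSEM. The submitters' processing notes also name limma and the build hg38, and versions are not given in the sources used here. The deposited count files hold the authors' estimated counts per gene, without normalization, and 11.7% to 15.0% of the genes of a library have values that are not whole. Deposited TPM, which the authors normalized for length and depth, was used for 5 libraries. For RC48 replicate 2, counts were turned into TPM with effective lengths that counts and TPM of the other libraries imply, from genes with 20 or more counts and 1 or more TPM. Applied to RC48 replicate 3, this differed from its deposited TPM by a median of 0.0355 (absolute log2, 11960 genes). The number of per-sample columns left unused was 0.

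Counts were rounded, filtered with filterByExpr, and scaled by TMM. RC48 was compared with Control in edgeR's quasi-likelihood test without covariates, and Benjamini-Hochberg adjusted p-values under 0.05 were called (edgeR 4.0.16, DESeq2 1.42.0 and limma 3.58.1 in R 4.3.3). The study tested log2(TPM + 1) with limma, which is among the alternatives. So are DESeq2, voom with sample quality weights, other scalings and filters, and each library left out. The GC correction subtracted each library's loess trend (span 0.3) on the GC content (median over protein-coding GENCODE v29 transcripts), found for 99.0% of genes, as an offset. Median log2 ratios and tables were made with Python 3.11.15, numpy 2.4.6, pandas 2.3.3 and scipy 1.17.1, promoter identities with Biopython 1.88 and figures with matplotlib 3.10.9. Coordinates and promoter windows are from RefSeq. The first of 2 listed TAP1 starts was used. The procedure was tested on simulated data without a GC trend, where it called 138 of 200 changed genes and 7 unchanged genes. CPM values are TMM-scaled.

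The members and lists were chosen with earlier results of these data known. Named are all 9 members, called genes of the lists (up to 6 in each direction), a fixed set of class I pathway genes, and the 5 genes nearest in pattern. The cell type markers, LAP3, PSMB5, PSMB6 and PSMB7 were named after their values were seen. Some genes of the lists are not reported here and were left out of the list counts. Depth limits NLRC5 most. Same-numbered libraries did not deviate together, so no pairing was used.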

Additional observations from a re-analysis of the deposited data

How the results depend on the processing

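Of 180 values of the 9 genes over 20 alternatives, 132 kept their side of the threshold, 19 gained a call and 29 lost one, and 0 changed direction. The 5 called members became 9 with voom and with limma on log2(TPM + 1) over 5 libraries (all but RC48 replicate 2), and 2 under the length correction combined with the replicate block. Leaving out a library gave 0 to 9 called members, 2 to 26 called genes of the other lists (6 in all libraries) and 68 to 3726 of all genes (288 in all libraries). Called genes of the other lists were 10 with DESeq2, 40 with voom and 20 with limma on 5 libraries. Called among all genes were 744 with DESeq2, 8018 with voom, 2894 with limma on 5 libraries, 182 with limma on log2(TPM + 0.1), 967 with the GC correction and 698 with the replicate block and GC correction. The cause of these differences was not tested.

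Same-numbered libraries had correlations of 0.002, −0.13 and 0.005 over 13055 genes, and 0 of 6 libraries correlated best with its own number. With the replicate block alone, 5 members, 5 genes of the other lists and 331 of all genes were called.

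Small log2 fold changes changed sign. ERAP1 was 0.016 with voom, 0.0045 under the length correction, 0.0052 when the replicate block was added to it, and between −0.18 and 0.022 with 1 library left out. CIITA was 0.022 with limma on 5 libraries and between −0.40 and 0.062 with 1 library left out. CALR was −0.045 with the GC correction, with and without the replicate block. PSME1 was −0.0027 under the length correction and −0.0051 when the block was added. Summed heavy chains, not corrected for GC content, kept their direction, at 0.47 to 0.68 with a library left out and 0.48 in TPM. The low level of NLRC5 limits its precision.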

Other observations

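Levels in TPM and in CPM ranked the RC48 libraries differently for B2M. In TPM, B2M was at 508, 522 and 505 in Control and at 647, 804 and 753 in RC48 replicates 1, 2 and 3, where the value of replicate 2 was computed here. The ratio of group means was 1.44 in TPM and 1.53 in CPM. For TAPBP and TAP1, the RC48 libraries lay closer together in TPM, at 199.98 ± 2.93 and 109.9 ± 3.83 (SD, n = 3), than in CPM, at 368 ± 29.03 and 159.6 ± 16.6.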
